A study of Mus musculus with 6 samples.

Results

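The genes described here encode the ion channels that set the membrane potential of islet cells and let calcium in. They are 51 mouse genes for subunits of ATP-sensitive potassium (KATP) channels, other potassium channels, voltage-gated calcium channels, voltage-gated sodium channels, and TRP and HCN cation channels. The members are a list of gene names from channel families of islet cell excitability, and the rule for them used no measured value, although it was written with earlier results of these data known. All 51 were on the array, among 45616 features tested, and 106 other genes of the same families were counted beside them.

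The samples were islet cells of mouse pups at postnatal day 1 (P1), sorted by FACS into 2 populations on membrane GFP (mGFP). Wnt4hi cells were GFPpositive and Wnt4low cells were GFPnegative. By the study's methods the cells came from pups with Wnt4eGFPCre, a tracer allele that expresses eGFP and Cre from the Wnt4 locus, together with mTmG, a reporter that switches from membrane tdTomato to membrane GFP once Cre has acted. The pups were bred to C57BL/6J. A caption of the study gives the GFPnegative side a genotype with mTmG but without the tracer, so it is not settled whether every Wnt4low pool carried Wnt4eGFPCre. The gate therefore read a lineage mark, which stays on once Wnt4 has been active in a cell, and not the amount of Wnt4 RNA on the day. There were 3 arrays of each population, Wnt4hi replicates 2, 3 and 4 and Wnt4low replicates 1, 3 and 4, each of RNA from the pooled islets of 3 or 4 pups. No cell type other than islet cells was named for the gate, so both populations can hold several cell types. All 6 arrays lay on 1 slide. Precision is limited by having 3 pools per population, for which the smallest two-sided p of an exact permutation test is 0.1. The sources do not say which litters the pools came from, so the p-values measure the spread between these pools.

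An islet β-cell turns glucose into electrical activity. Glucose metabolism raises ATP, ATP closes KATP channels, and the cell depolarizes. Voltage-gated calcium channels then open and the entering calcium triggers the release of insulin granules, while voltage-gated and calcium-activated potassium channels bring the membrane back down. Sodium, TRP and HCN channels shape the approach to threshold, and α-cells and δ-cells use many of the same subunits. The comparison asked which of these genes differed between the cells that carried the lineage mark at P1 and those that did not.

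Values are log2 fluorescence intensities after background correction and quantile normalization, and a difference is the mean of the 3 Wnt4hi arrays minus the mean of the 3 Wnt4low arrays on that scale, with the standard error (SE) of the limma fit. A gene is said to have passed at an unadjusted p under 0.05, the threshold used in the study. Adjusted p-values are Benjamini-Hochberg values over all 45616 features. Of the 51 channel genes, 12 were higher in Wnt4hi, 3 were lower and 36 did not pass. Over all features, 5.02% passed as higher and 5.53% as lower. After adjustment 0 channel genes passed, the smallest adjusted p being 0.102 for Scn2a. Of all features 0.438% passed, a share too small for 0 of 51 genes to stand out from it. The same 12 and 3 genes were those whose Wnt4hi arrays all lay above, or all below, the Wnt4low arrays, and such a separation was found in 9.56% of all features for higher and in 6.44% for lower. The median difference of the 51 genes was 0.24 and 40 of them (78.4%) lay above 0, against a median of 0.07 and 63.5% above 0 over all features. Among the 106 other genes of these families the median was 0.09, with 3 higher and 10 lower past the threshold.

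**Figure D1:**
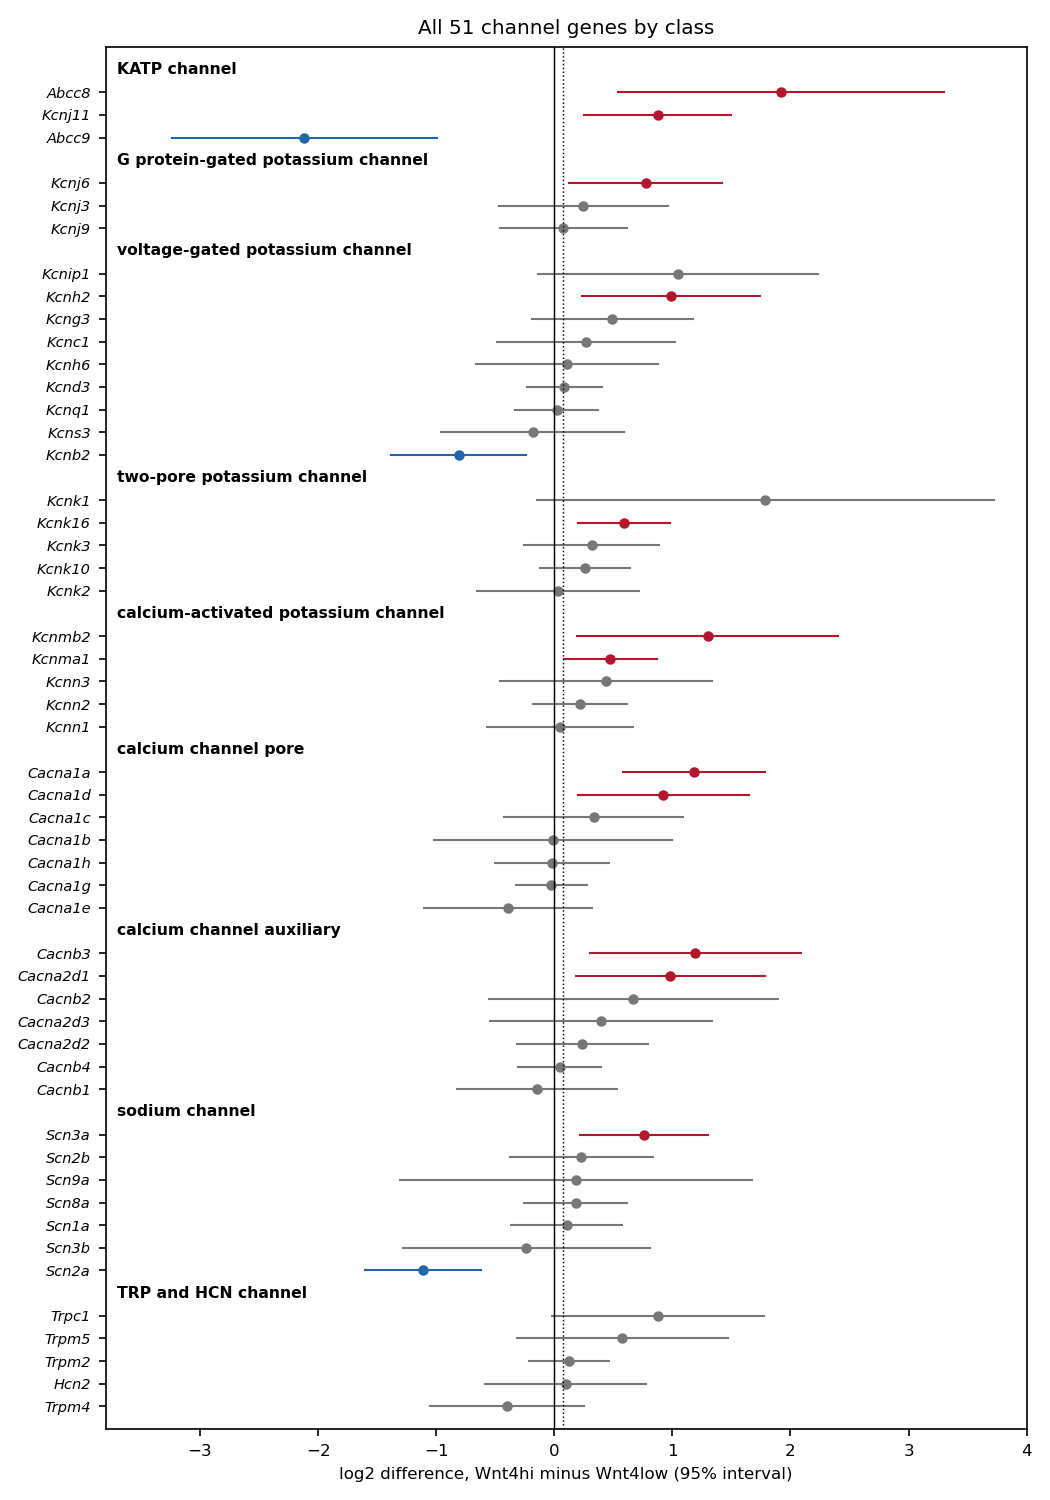
Log2 difference of each of the 51 channel genes (Wnt4hi minus Wnt4low, x axis) with its 95% interval, grouped by class and sorted within each. Red genes passed as higher (12), blue genes as lower (3) and grey genes did not pass (36); the solid line is 0 and the dotted line is the median of all features (0.07).

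The populations differed in more than Wnt4, and these values stand beside every result here. Wnt4 itself had log2 values of 11.20, 10.53 and 10.77 in Wnt4hi and of 9.85, 10.11 and 9.31 in Wnt4low. It was 1.08 ± 0.27 (SE) higher in Wnt4hi, with an adjusted p of 0.212 and no overlap between the arrays. Of 24 genes shared by islet endocrine cells, such as Isl1, Chgb and Pax6, 18 passed as higher in Wnt4hi and 0 as lower, with a median of 1.11. Of 14 β-cell genes 10 were higher, with a median of 1.26. Of 15 endothelial genes, such as Robo4, Fabp4 and Kdr, all 15 were lower in Wnt4hi, with a median of -3.88, and 9 of 15 pericyte, smooth muscle and mesenchyme genes were lower, with a median of -1.18. In the Wnt4hi arrays 9 of the 15 endothelial genes were still well above background on all 3 arrays and 2 on none, and all 15 genes of the pericyte, smooth muscle and mesenchyme list were above it. The pan-endocrine list deviated from the mean of the 6 arrays by 0.51 to 0.56 in Wnt4hi and by -1.11 to -0.08 in Wnt4low, and the endothelial list by -2.11 to -1.61 and by 1.49 to 2.50. Medians of the difference were 1.41 for α-cell genes, -0.56 for δ-cell genes, 1.22 for PP and ghrelin genes, -0.28 for Schwann cell and neuron genes, -0.87 for leukocyte genes, -0.84 for acinar genes, 0.10 for ductal genes and -0.15 for erythroid genes. In sorted pools, fewer cells of a type and less RNA per cell cannot be told apart, and the part of cell mixture in the channel differences was not tested beyond the values given relative to endocrine genes.

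The KATP channel of β-cells is built from Kir6.2, the potassium pore, and SUR1, the sulfonylurea receptor that surrounds it. Both genes were higher in Wnt4hi, while the gene of SUR2, the receptor used in muscle and vessels, was lower. Kcnj11, which encodes Kir6.2, had log2 values of 10.48, 10.15 and 10.85 in Wnt4hi replicates 2, 3 and 4 and of 9.50, 10.01 and 9.35 in Wnt4low replicates 1, 3 and 4. The groups did not overlap, and Wnt4low replicate 3 came nearest to Wnt4hi. The difference was 0.88 ± 0.26 (SE, n = 3 arrays each), a 1.84-fold ratio, with an adjusted p of 0.282 in limma. A second Kcnj11 probe with lower intensity differed by 0.19 and did not pass, and the mean of both probes differed by 0.53 and passed.

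Abcc8, which encodes SUR1, had log2 values of 12.56, 12.46 and 12.08 in Wnt4hi and of 9.97, 11.78 and 9.59 in Wnt4low. Its difference of 1.92 ± 0.57 (3.78-fold, adjusted p 0.289) was the largest increase among the 51 genes. Wnt4low replicate 3 again stood well above the other Wnt4low arrays. Without it the difference was 2.59, and without Wnt4low replicate 4 or 1 it was 1.49 or 1.68, with an unadjusted p of 0.0434 or 0.048. The other Abcc8 probe was 1.29 higher in Wnt4hi and passed too.

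Abcc9, which encodes SUR2, had log2 values of 10.29, 8.95 and 8.70 in Wnt4hi and of 10.94, 11.65 and 11.71 in Wnt4low. It was lower in Wnt4hi by the widest margin of the 51 genes, at -2.12 ± 0.46 (4.34-fold, adjusted p 0.155), with Wnt4hi replicate 2 closest to the Wnt4low range. Its usual pore partner, Kir6.1, is encoded by Kcnj8, which was not among the 51 genes and was one of the 15 pericyte, smooth muscle and mesenchyme markers. Kcnj8 had log2 values of 10.97, 8.67 and 10.27 in Wnt4hi and of 11.73, 12.10 and 12.05 in Wnt4low, a difference of -1.99 ± 0.57 with an adjusted p of 0.270. The 2 genes of the vascular type of KATP channel both had their highest Wnt4hi value in replicate 2. In that array the median of the pericyte, smooth muscle and mesenchyme list deviated from the mean of the 6 arrays by 0.17. The list deviated by -1.20 and -0.72 in Wnt4hi replicates 3 and 4 and by 0.52 to 0.60 in Wnt4low. Kcnj8, itself in the list, was lowest in replicate 3 as the list was, but Abcc9 was lowest in replicate 4. A link to cell content was not tested.

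**Figure D2:**
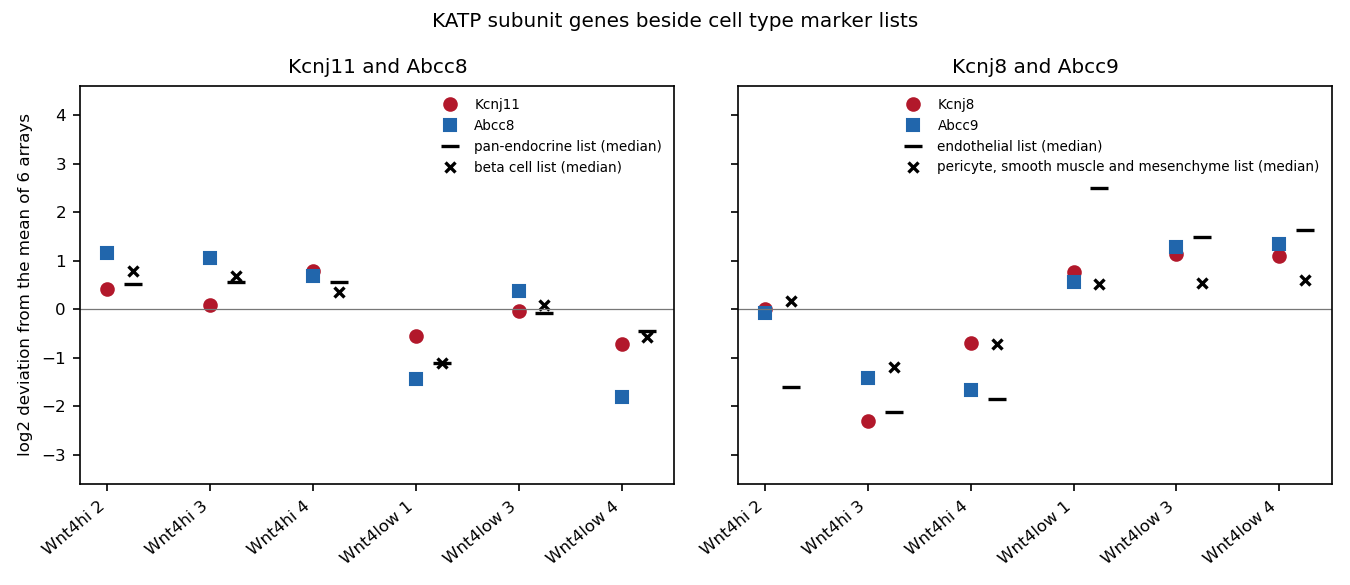
Deviation of each array from the mean of the 6 arrays (y axis, log2) for the KATP subunit genes (colored symbols) and for the median of marker lists (black symbols). Kcnj11 and Abcc8 are lowest in Wnt4low replicates 1 and 4, as are the pan-endocrine and β-cell lists, whereas Kcnj8 and Abcc9 are lower in the Wnt4hi arrays, as are the endothelial list and, in replicates 3 and 4, the pericyte, smooth muscle and mesenchyme list, of which Kcnj8 is a member.

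With the 3 KATP genes included, 22 of 25 potassium channel genes (88.0%) lay above 0, where 63.5% of all features did, with a median of 0.27. Of the 25, 7 passed as higher and 2 as lower, where 5.02% and 5.53% of all features did. The single classes below hold few genes each, and their counts are not read as class results. The G protein-gated (GIRK) channels Kcnj3, Kcnj6 and Kcnj9 open when inhibitory receptors, such as those for somatostatin, release G protein subunits. Their median was 0.25, but 0.40 without Wnt4hi replicate 3, 0.50 without Wnt4low replicate 1 and 0.08 with the mean of probes, and only Kcnj6 passed. Kcnj6 had log2 values of 7.09, 8.07 and 7.34 in Wnt4hi and of 6.62, 6.82 and 6.74 in Wnt4low, but was well above background on 1 Wnt4hi array and on 0 Wnt4low arrays. Its ratio is therefore bounded as at least 1.07-fold higher in Wnt4hi, beside a fitted difference of 0.77 ± 0.27 (adjusted p 0.372), and leaving out Wnt4low replicate 1, 3 or 4 gave an unadjusted p of 0.073, 0.0526 or 0.062. Leaving out Wnt4hi replicate 3 gave a difference of 0.49, and the scanner software's processed signal one of 1.19.

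Voltage-gated potassium channels repolarize the membrane after each spike. The 9 genes of this class had a median of 0.11, with 1 higher and 1 lower. The median was 0.20 without Wnt4hi replicate 2, 0.32 without Wnt4low replicate 3 and 0.04 without Wnt4low replicate 4. Kcnh2, which encodes the ERG channel that also repolarizes heart cells, had log2 values of 10.04, 10.67 and 10.61 in Wnt4hi and of 9.06, 10.03 and 9.26 in Wnt4low. The lowest Wnt4hi array and Wnt4low replicate 3 were nearly level, and the difference was 0.99 ± 0.31 (adjusted p 0.318). Its other probe was 0.63 higher and passed. The unadjusted p of Kcnh2 was 0.0582, 0.0568, 0.0558 and 0.0583 without Wnt4hi replicate 3, Wnt4hi replicate 4, Wnt4low replicate 1 and Wnt4low replicate 4, in that order.

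Kcnb2, which encodes a delayed rectifier of the Kv2 family, went the other way. Its log2 values were 7.52, 7.68 and 7.53 in Wnt4hi and 8.88, 8.10 and 8.17 in Wnt4low, a difference of -0.81 ± 0.23 (adjusted p 0.279). It was well above background on 1 of 3 Wnt4hi arrays and on all 3 Wnt4low arrays. The related ERG gene Kcnh6 is named here because its probes disagreed, a choice made after its values were seen. The probe with the highest intensity differed by 0.11 with overlapping arrays, while the other 2 probes were 1.02 and 1.37 higher in Wnt4hi and both passed. Kcnip1, the calcium-binding partner of Kv4 channels, differed by 1.05 ± 0.49 and did not pass, with an SD of 1.00 in Wnt4hi. The others, Kcnc1, Kcnd3, Kcnq1, Kcng3 and Kcns3, lay between -0.18 and 0.49, and Kcns3 was well above background on 0 of the 6 arrays.

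Two-pore potassium channels carry the leak current that holds the resting potential. All 5 lay above 0, with a median of 0.32 (0.55 without Wnt4low replicate 3), and Kcnk16 passed. Kcnk16 encodes TALK1, a leak channel that is enriched in islets. Its log2 values were tight, at 11.74, 11.91 and 11.75 in Wnt4hi and 11.02, 11.45 and 11.15 in Wnt4low, and did not overlap. The difference was 0.59 ± 0.16 (1.51-fold, adjusted p 0.243). Kcnk16 passed without any one of the 6 arrays, but not with the replicate number fitted as a fixed term. Kcnk1 differed more, by 1.79 ± 0.79, but its Wnt4low arrays were spread from 6.11 to 9.28 and overlapped Wnt4hi, so it did not pass. Kcnk2, Kcnk3 and Kcnk10 lay between 0.03 and 0.32.

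Calcium-activated potassium channels link calcium entry back to repolarization. All 5 genes lay above 0, with a median of 0.44 that was 0.20 with the mean of probes and 0.12 in the authors' table of normalized values, and both subunits of the large-conductance (BK) channel passed. Kcnma1, the BK pore, had log2 values of 10.58, 10.93 and 10.68 in Wnt4hi and of 10.34, 10.07 and 10.37 in Wnt4low, a difference of 0.47 ± 0.16 (adjusted p 0.363). Of its 4 other probes, which are named for other transcripts of the gene, 3 passed as higher. The 4 ranged from 0.09 to 2.40, so that the mean of all 5 probes differed by 1.03 and passed. Without Wnt4hi replicate 3 or Wnt4low replicate 3 the unadjusted p of Kcnma1 was 0.0849 or 0.0775, and with a trended, robust variance model it was 0.0532.

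Kcnmb2, the β2 subunit that makes BK channels inactivate, had log2 values of 11.42, 11.55 and 11.92 in Wnt4hi and of 9.51, 11.31 and 10.17 in Wnt4low. Its difference of 1.30 ± 0.46 (adjusted p 0.380) rested on wide spread in Wnt4low, where replicate 3 was close to the Wnt4hi range. The unadjusted p was 0.0583, 0.0842, 0.0652 and 0.0791 without Wnt4hi replicate 3, Wnt4hi replicate 4, Wnt4low replicate 1 and Wnt4low replicate 4, and the other probe, at 0.46, did not pass. The small-conductance genes Kcnn1, Kcnn2 and Kcnn3 lay between 0.05 and 0.44 and none passed.

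The start regions of 3 genes are printed to show how different the promoters of channels that moved in these data can be. Kcnh2 and Kcnk16 were higher in Wnt4hi and Abcc9 was lower. Each line gives the 150 bases just before the transcription start in RefSeq (build GRCm38.p6), 5′ to 3′ on the gene's own strand, which is minus for all 3. Capitals mark the letters GGGCGG of a GC box, TATAAA of a TATA box or CAGATG of an E-box, searched on both strands.
Abcc9, chr6:142702275-142702424: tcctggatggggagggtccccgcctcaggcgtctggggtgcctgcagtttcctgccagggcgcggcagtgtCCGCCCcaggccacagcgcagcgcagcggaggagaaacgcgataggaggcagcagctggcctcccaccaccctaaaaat
Kcnh2, chr5:24329592-24329741: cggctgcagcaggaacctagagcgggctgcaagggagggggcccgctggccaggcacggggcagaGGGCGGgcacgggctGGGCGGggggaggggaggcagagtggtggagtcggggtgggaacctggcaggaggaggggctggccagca
Kcnk16, chr14:20269270-20269419: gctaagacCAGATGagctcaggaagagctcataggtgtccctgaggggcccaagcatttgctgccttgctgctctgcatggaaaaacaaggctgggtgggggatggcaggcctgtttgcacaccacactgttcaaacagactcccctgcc
The window of Kcnh2 was 75.3% G or C with 2 GC boxes, that of Abcc9 68.0% with 1, and that of Kcnk16 56.7% with an E-box and no GC box. Start regions were held for 39 of the 51 genes, not for Kcnj11, Abcc8 or Cacna1a. Within 250 bases before a start, a GC box was present in 25 of these 39 genes (64.1%), against 45.8% of 17492 protein-coding genes. It was present in 6 of the 8 genes with a region that were higher in Wnt4hi and in 1 of the 2 that were lower. A TATA box was present in 4 of 39 (10.3%, against 13.7%) and an E-box in 7 of 39 (17.9%, against 14.2%). These are matches of letters and not measured sites.

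**Figure D3:**
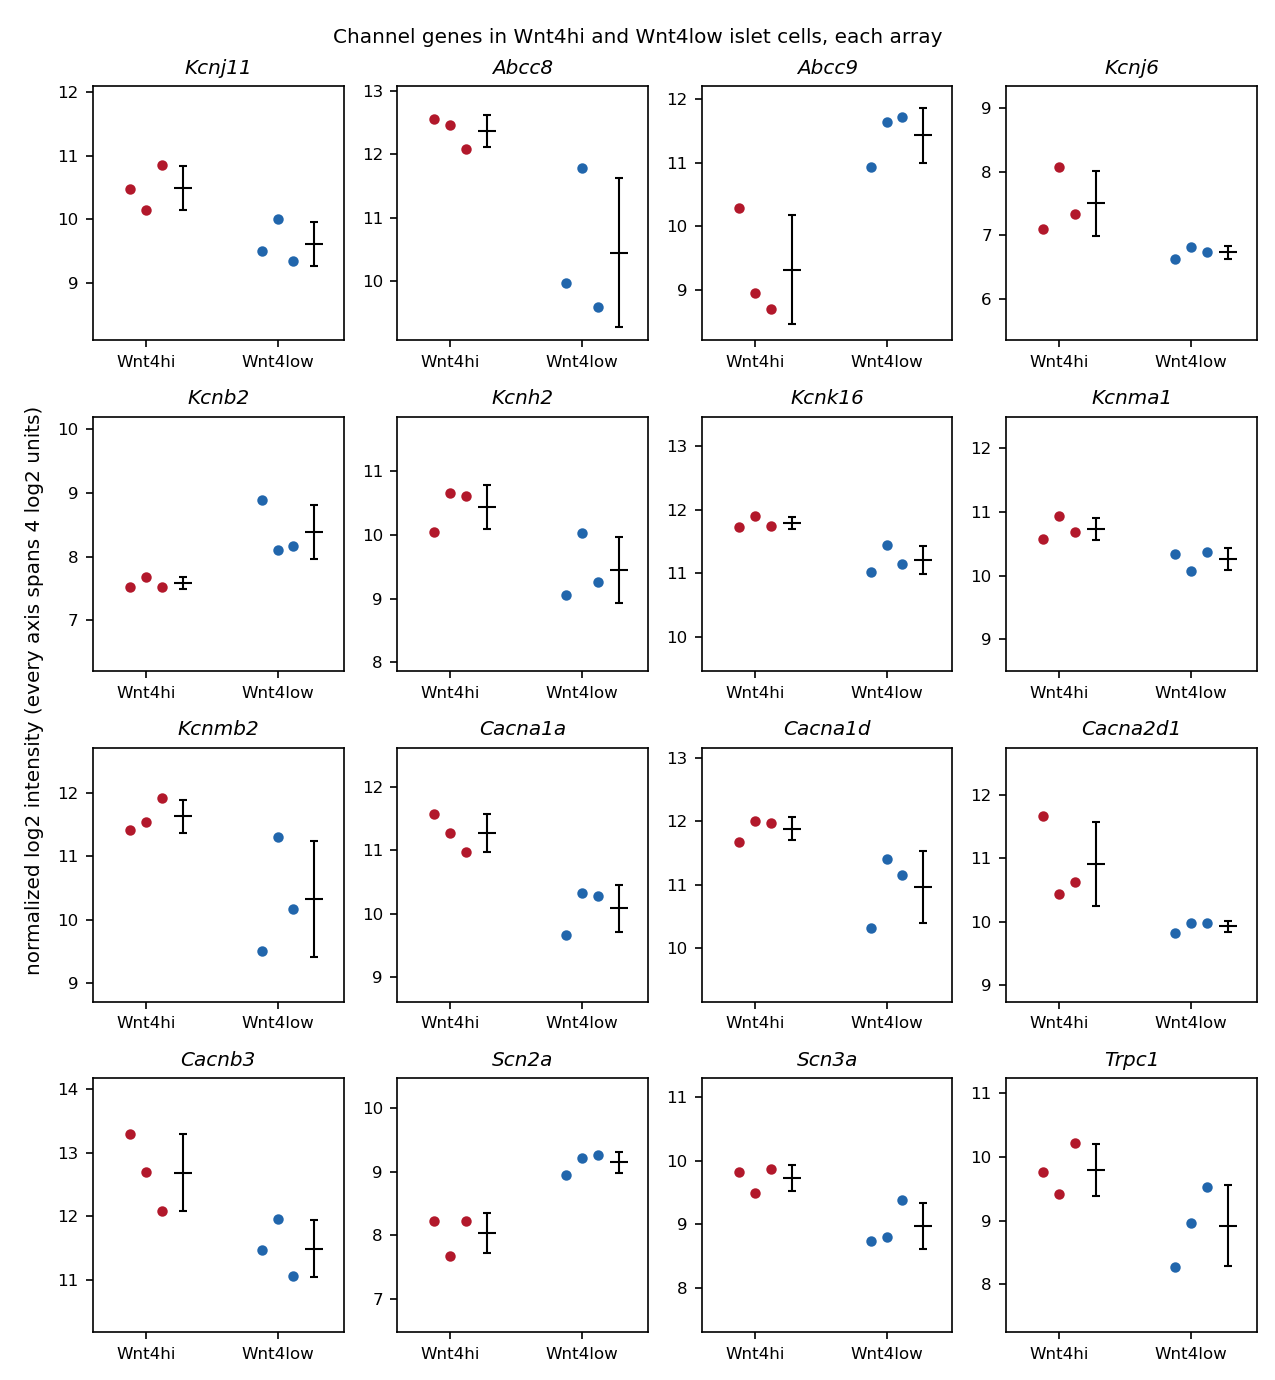
Normalized log2 intensity (y axis) of the 15 genes that passed and of Trpc1 in each Wnt4hi (red) and Wnt4low (blue) array, in the order of the replicate numbers, with mean and SD in black (n = 3 each). The arrays of the 2 populations do not overlap in any panel except that of Trpc1.

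Voltage-gated calcium channels open on depolarization and are the direct trigger of secretion. Of 7 pore genes, 2 were higher and 5 did not pass, with a class median of -0.01 that was 0.31 without Wnt4hi replicate 4 and 0.25 without Wnt4low replicate 1. Cacna1a, the pore of P/Q-type channels, had log2 values of 11.57, 11.27 and 10.97 in Wnt4hi and of 9.67, 10.32 and 10.27 in Wnt4low. The lowest Wnt4hi array lay well above the highest Wnt4low array, and the difference of 1.18 ± 0.25 (2.27-fold) had the smallest adjusted p among the genes that were higher, 0.143. Its 2 other probes were above 0, at 0.27 and 0.79, and did not pass, while the mean of the 3 probes differed by 0.75 and passed.

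Cacna1d, the pore of the L-type channel Cav1.3, had log2 values of 11.68, 11.99 and 11.97 in Wnt4hi and of 10.32, 11.40 and 11.16 in Wnt4low. It was 0.92 ± 0.30 higher (1.90-fold, adjusted p 0.336), and its other probe was 0.50 higher and passed. Wnt4low replicate 1 was the lowest array, and without it the difference was 0.60 and still passed. Without Wnt4hi replicate 3 or 4 the unadjusted p was 0.0597 or 0.0587. The other L-type gene, Cacna1c, differed by 0.33 ± 0.31 on its brightest probe, with a 95% interval from -0.42 to 1.09, while its 3 other probes lay between -0.27 and -0.20. Cacna1b (N-type), Cacna1g and Cacna1h (T-type) lay between -0.03 and -0.01, and Cacna1e (R-type) at -0.39 ± 0.29.

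Calcium channel auxiliary subunits bring the pores to the membrane and tune their gating. Of 7 genes, 6 lay above 0, with a median of 0.40, and Cacnb3 and Cacna2d1 passed. The median was 0.04 without Wnt4hi replicate 3, 0.61 without Wnt4hi replicate 2, 0.25 without Wnt4low replicate 1, 0.66 with the processed signal and 0.21 in the authors' table. Cacnb3, the cytoplasmic β3 subunit, had log2 values of 13.29, 12.69 and 12.07 in Wnt4hi and of 11.46, 11.95 and 11.05 in Wnt4low, with the lowest Wnt4hi array only just above the highest Wnt4low array. The difference was 1.20 ± 0.37 (2.29-fold, adjusted p 0.310), and without Wnt4low replicate 4 the unadjusted p was 0.0568. In the authors' table of normalized values Cacnb3 differed by 0.67, with an unadjusted p of 0.0677, and without that table's Wnt4hi replicate 2 column, which followed its array poorly, by 0.85, with an unadjusted p of 0.0412. Cacna2d1, the extracellular α2δ1 subunit, had log2 values of 11.66, 10.44 and 10.62 in Wnt4hi and of 9.82, 9.98 and 9.98 in Wnt4low. Its difference of 0.98 ± 0.33 had an adjusted p of 0.356. Wnt4hi replicate 2 was the highest array, and without it the difference was 0.61 and still passed. Without Wnt4low replicate 1, 3 or 4 the unadjusted p was 0.0647, 0.0545 or 0.0541, and its 2 other probes, at 0.55 and 0.63, did not pass. The remaining 5 genes, Cacna2d2, Cacna2d3, Cacnb1, Cacnb2 and Cacnb4, lay between -0.14 and 0.67.

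Of 7 sodium channel genes, 1 was higher, 1 was lower and 5 did not pass, where 5.02% of all features passed as higher and 5.53% as lower. The class median was 0.18, and it was -0.05 without Wnt4hi replicate 3, 0.11 without Wnt4hi replicate 2 and 0.07 without Wnt4low replicate 3. In the authors' table it was -0.12. Scn3a, the Nav1.3 pore, had log2 values of 9.82, 9.50 and 9.87 in Wnt4hi and of 8.73, 8.80 and 9.38 in Wnt4low, a difference of 0.76 ± 0.22 (adjusted p 0.285). Its 2 other probes, at 0.05 and 0.16, did not pass and were above background on 1 array of each population at most. Over the mean of its 3 probes the difference was 0.32, with an unadjusted p of 0.155.

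Scn2a, the Nav1.2 pore, was lower in Wnt4hi. Its log2 values were 8.22, 7.67 and 8.22 in Wnt4hi and 8.95, 9.22 and 9.27 in Wnt4low, 2 narrow groups that lay well apart, and the difference was -1.11 ± 0.20 (2.16-fold). This was the smallest unadjusted p of the 51 genes, 0.0014, and it stayed under 0.05 without any one of the 6 arrays. Its 3 other probes ranged from -0.64 to 0.06 and none passed. One of these was well above background on all arrays and differed by 0.06, so the probes of Scn2a disagreed. The mean of the 4 probes differed by -0.44 and passed, and the difference in the authors' table was -0.71. Scn1a, Scn8a, Scn9a, Scn2b and Scn3b lay between -0.24 and 0.23.

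Among TRP and HCN channels 0 of 5 genes passed, with a median of 0.12. The median was 0.08 and 0.09 without Wnt4hi replicates 2 and 3, 0.31 without Wnt4hi replicate 4, and 0.26 without Wnt4low replicate 1. Its sign turned in the authors' table, to -0.02, and to -0.13 without that table's Wnt4hi replicate 2 column. Trpc1, a subunit of cation channels that act downstream of receptors and calcium stores, came closest. It had log2 values of 9.76, 9.41 and 10.22 in Wnt4hi and of 8.26, 8.96 and 9.53 in Wnt4low, which overlap, and differed by 0.88 ± 0.37 (unadjusted p 0.0533, adjusted p 0.484). It passed without Wnt4hi replicate 3 (1.07) and without Wnt4low replicate 4 (1.18) but not without any of the other 4 arrays, and the difference was 0.55 without Wnt4low replicate 1. It also passed with a filter on dim probes (unadjusted p 0.0448), median centring (0.0435), the processed signal (0.0315) and the authors' table (0.027). Its other probe differed by 0.06. Trpm2, Trpm4, Trpm5 and Hcn2 lay between -0.40 and 0.58.

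The probes of a gene can report different transcripts or bind with different strength, so the calls were read probe by probe. The 51 genes had 109 probes, and 33 genes had more than 1. In 21 of these 33, all probes lay on the same side of 0. Of the 15 genes that passed, 10 had more than 1 probe, and 17 of their 18 other probes lay on the called side, 6 of them past the threshold, in Abcc8, Kcnh2, Kcnma1 and Cacna1d. Among the genes that did not pass, another probe passed in 1 only, Kcnh6.

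**Figure D4:**
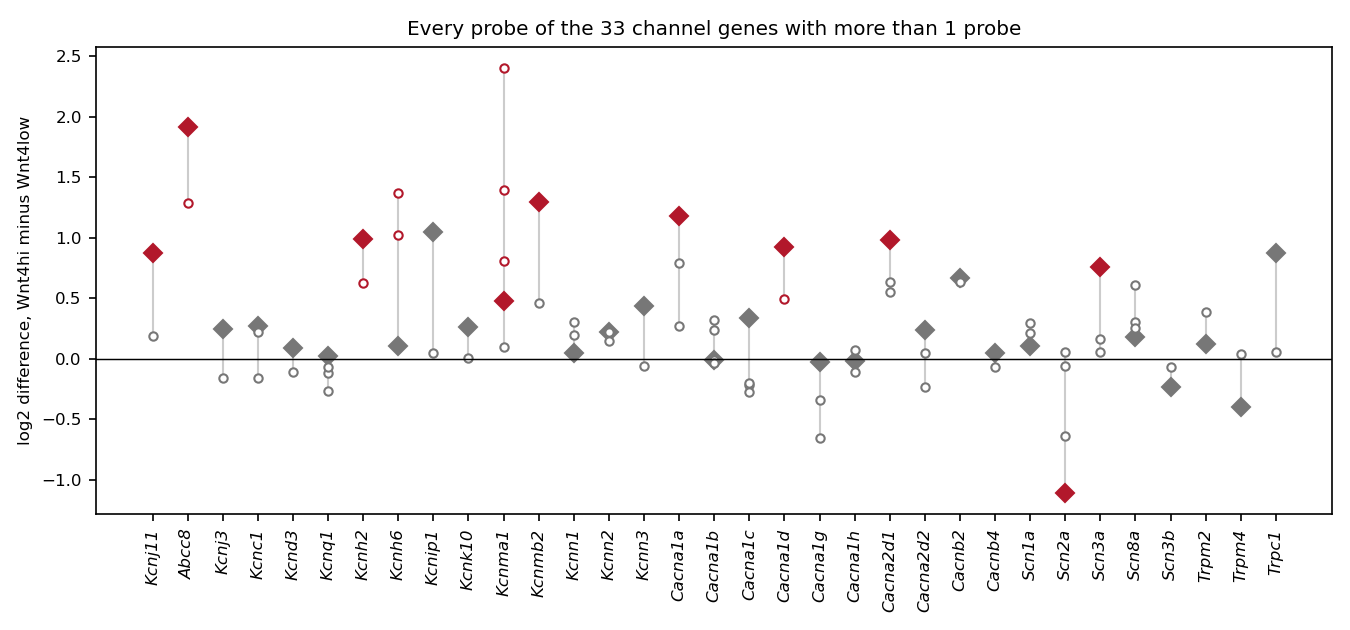
Log2 difference (Wnt4hi minus Wnt4low, y axis) of every probe of the 33 channel genes with more than 1 probe. The filled diamond is the probe that stood for the gene (highest mean intensity), open circles are its other probes, and red marks an unadjusted p under 0.05; all probes of the 9 genes with several probes that were higher lie above 0.

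The Wnt4low arrays were not alike. In 10 of the 12 genes that were higher in Wnt4hi, Wnt4low replicate 3 held the highest of the 3 Wnt4low values, as it did in 20 of 24 pan-endocrine genes, and in 8 of the 12 Wnt4low replicate 1 held the lowest, as in 20 of 24. Among the 36 channel genes that did not pass, replicate 3 was the highest in 12 and replicate 1 the lowest in 10. Over 45610 features measured on all arrays, replicate 3 was the highest Wnt4low array in 13340. The 12 genes were not chosen on this order within Wnt4low. Whether it reflects the share of endocrine cells in each pool was not tested.

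Each gene was therefore also read relative to the mean of the 24 pan-endocrine genes on its own array. On this scale 6 of the 51 channel genes (11.8%) lay above 0, with a median of -0.78, against 2.28% above 0 and a median of -0.95 over all features. Passing were 1 gene as higher and 21 as lower, where 0.199% of all features passed as higher and 66.9% as lower, so a lower value here is what most features had. The fit gave every feature the same SE, 0.43, and since all values share the subtracted mean these p-values are not independent of each other.

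Abcc8 was the one gene that passed as higher in Wnt4hi on this scale, by 0.90 (limma, unadjusted p 0.0378, adjusted p 0.0646). These p-values rest on the common SE and not on the spread of Abcc8 itself, which lay below the mean of the endocrine genes on all 6 arrays. Its relative log2 values were -0.29, -0.45 and -0.93 in Wnt4hi and -1.46, -0.54 and -2.37 in Wnt4low, so that Wnt4low replicate 3 lay inside the Wnt4hi range. The SD of Abcc8 on this scale was 0.92 in Wnt4low and 0.33 in Wnt4hi. Its relative difference was 0.44 without Wnt4low replicate 4 (unadjusted p 0.391) and 1.36 without Wnt4low replicate 3, and of the 6 arrays left out in turn it passed only without that one and without Wnt4hi replicate 4. Kcnk1 was the gene that passed without Wnt4hi replicate 2 and without Wnt4low replicate 4, and no gene passed as higher without Wnt4hi replicate 3 or Wnt4low replicate 1, nor with the mean of probes, the probe with the smallest p, an offset of 16, or the median or the transcription factors of the pan-endocrine list as reference. Kcnj11 had relative values of -2.37, -2.75 and -2.16 in Wnt4hi and of -1.92, -2.31 and -2.62 in Wnt4low. The difference was -0.14, with an SD of 0.30 in Wnt4hi and 0.35 in Wnt4low. This is for its brightest probe, and its other probe differed by only 0.19 before the endocrine mean was subtracted. The relative differences of the other genes that were higher lay between -0.54 for Kcnma1 and 0.28 for Kcnmb2. For the genes that were lower, the relative difference was -3.14 for Abcc9, -2.13 for Scn2a and -1.83 for Kcnb2.

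Among the 106 other genes of these families, the 3 with the smallest p among those higher were Kcnip4, Kcnj4 and Kcnj5. Kcnip4, a relative of the Kv4 partner Kcnip1, was 1.45 ± 0.23 higher in Wnt4hi (adjusted p 0.0742). Kcnj5, a GIRK subunit that pairs with Kcnj3, was 1.35 ± 0.51 higher (adjusted p 0.428). Without Wnt4hi replicate 2 its difference was 0.79, and without Wnt4hi replicate 3, Wnt4low replicate 3 or Wnt4low replicate 4 its unadjusted p was 0.0507, 0.0762 or 0.115. Kcnj4, an inward rectifier, was 0.54 ± 0.20 higher, and of the 6 arrays left out in turn it passed only without Wnt4low replicate 3. Among the 10 that were lower, Kcne1l and Kcna1 had some of the smallest p. Kcna1, a Kv1 pore, and Kcne1l, an accessory subunit, were not well above background on any Wnt4hi array and were at least 1.44-fold and at least 1.36-fold lower there. As with the 51 genes, 0 of the 106 passed after adjustment.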

How the data were processed

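RNA of FACS-sorted P1 islet cells (picogram amounts, amplified with the Ovation PicoSL WTA System V2) was labeled with Cy5 and hybridized to 1-color Agilent mouse arrays. The authors deposited the scanner output, whose intensity values are per spot and not normalized, and a table of normalized log2 values. Per the submitters' processing notes the scanner software was Agilent Feature Extraction 9.1, whereas the headers of all 6 scanner files name version 12.0.1.1. Groups and replicate numbers came from the labels.

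Median spot intensity was corrected against median local background by normexp (offset 50, all spots) and normalized by quantiles over spots that are not controls, with limma 3.58.1 in R 4.3.3, after the study's methods. Spots marked as outliers (50 to 141 per array) were left out, 0 spots were saturated, and spots of a probe were averaged. Median intensity was 10.8 to 15.7 times background, and 70.5% to 79.5% of spots were well above background. Names came from RefSeq (GRCm38.p6, for names and start regions only; 25126 of 27845 RefSeq-type probe names matched). The probe with the highest mean stood for a gene. Populations were compared with lmFit and eBayes without covariates. A bound for a gene below background on all arrays of a population took each dim array at its own value or, if higher, at the dimmest detected probe's value on that array. Members, classes and marker lists were chosen with earlier results of these data known. Values in every array are given for the KATP genes, for each gene that passed, and for the gene with the smallest p in a class where none did; of other family genes the 3 smallest p in each direction are named, except 1 that is not reported here, and of markers at most 3 per list by smallest p. Of 126 marker genes 125 were found. The fit was tested on simulated data. The labels do not say whether equal replicate numbers mark fractions of the same pool. Replicate 3 pooled 4 pups and replicate 4 pooled 3 pups in both populations. The deviations of these numbers correlated at -0.0325 and 0.156, values from too few arrays to settle a pairing. The main fit used no pairing, and a replicate block was run as an alternative. Alternatives changed background correction, normalization, dim-probe filter, outlier spots, probe choice, variance model, values, block, reference list and each array.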

Additional observations from a re-analysis of the deposited data

How the results depend on the processing

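The number of higher channel genes (12) was 8 to 13 and that of lower ones (3) was 2 to 4 under all alternatives but the replicate block, which gave 7 and 2. Without each array in turn the ranges were 9 to 13 and 3 to 4, and 7 to 12 of the 12 higher genes were among those that passed. Of the 51 genes, the 16 given with values on every array kept their sign under every alternative in which they were measured. Under the replicate block, which fits the replicate number as a fixed term, 6 of the 12 and 2 of the 3 passed, with Kcnk1 (1.25) added; the calls that ended were Kcnj11 (0.82, unadjusted p 0.0868), Kcnb2 (0.0809), Kcnk16 (0.0802), Kcnma1 (0.0798), Cacna2d1 (0.0712), Kcnmb2 (0.062) and Scn3a (0.0599). The authors' table held 40 of the 51 genes; there Cacna1a passed after adjustment (0.93, adjusted p 0.045), the 1 gene to do so, whereas 0 genes did under any other alternative. That table's column for Wnt4hi replicate 2 followed its scanner array poorly (correlation 0.271, against 0.843 to 0.872 for the others), and without that column, an alternative chosen after seeing the data, 0 passed. The median of the members (0.24) was 0.16 in the authors' table, 0.13 without that column, and 0.15 to 0.31 without each array. Class medians crossed 0 for calcium channel pores (-0.11 to 0.31), sodium channels (-0.12 to 0.24) and TRP and HCN channels (-0.13 to 0.38), and for no other class.

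Relative to endocrine genes, the 1 higher gene fell to 0 with the mean of probes, the probe with the smallest p, an offset of 16, the replicate block, the median of the pan-endocrine list and pan-endocrine transcription factors alone, and was 0 or 1 without each array, not always the same gene. The 21 lower genes became 8 with the median of the pan-endocrine list, 9 with the replicate block and 10 to 30 without each array. The cause of these changes was not tested. Signal limits 10 of the 51 genes, which were not well above background on all 6 arrays.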
